A study of Mus musculus with 4 samples.

Results

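The lysosome is the compartment in which cells break down proteins, glycans and lipids at acid pH. Its soluble enzymes are made in the endoplasmic reticulum, and many are tagged with mannose 6-phosphate and sorted to lysosomes by receptors. Membrane proteins with heavily glycosylated luminal domains line its wall, and the transcription factor TFEB is known to switch on many of these genes through promoter elements with the core CACGTG. In skeletal muscle, loss of single lysosomal enzymes is known to cause storage diseases, among them Pompe disease from loss of acid α-glucosidase.

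The genes described here are 42 genes of lysosomal enzymes, their activators and lysosomal membrane proteins, with Tfeb, of 49585 genes in the count tables. They were listed by symbol, and each symbol matched 1 gene. The cells were C2C12, an established mouse myoblast line of strain C3H that forms myotubes when serum is lowered. The empty-vector group (pLXSN in the sample titles) held 2 libraries of cells transduced with a retrovirus without insert, and the overexpressing group held 2 libraries of cells transduced with a retrovirus carrying C/EBPβ, a leucine zipper transcription factor. Both groups were pools of cells kept under 1200 µg/ml G418 over 7 days of selection, grown for 2 days and differentiated in 2% horse serum for 2 days, and all comparisons are between these groups. The sources used here do not give the promoter that drives the insert. Nothing in the labels ties the replicates to separate cultures, and the p-values then measure only a spread between libraries that may be technical.

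The libraries held 36461091 to 51537847 fragments assigned to genes. Cebpb itself stood at 42.7 and 41.3 CPM in the empty-vector libraries and at 502 and 442 CPM in the overexpressing libraries, where CPM is a gene's fragment count scaled to the size of its library. Its log2 fold change was 3.49 (SE 0.11, adjusted p = 9.03e-07 in edgeR's quasi-likelihood test, n = 2 in each group). All 10 listed markers of muscle differentiation were detected in every library, and all were lower in the overexpressing group (median log2 fold change -1.49). Their summed level was 26000 and 29400 CPM in the empty-vector libraries and 7360 and 12000 CPM in the overexpressing libraries. In bulk RNA, fewer cells of a type and less RNA per cell cannot be told apart.

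Promoter stretches of 5 of these genes are shown first, since they hold the sequence motifs to which the results are set below. They are the 80 bases just before RefSeq's start of transcription on GRCm38.p6, written in the direction of the gene, and were kept to genes where they reach less than 30 bases into the GENCODE gene. Capitals mark CACGTG, the core of the element that TFEB binds, or, in the case of Ids, TTGCGCAA, a palindrome of the kind bound by C/EBP proteins.
Arsa (chr15:89477425-89477504, minus strand): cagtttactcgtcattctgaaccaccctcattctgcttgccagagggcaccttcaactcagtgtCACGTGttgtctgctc
Glb1 (chr9:114400998-114401077, plus strand): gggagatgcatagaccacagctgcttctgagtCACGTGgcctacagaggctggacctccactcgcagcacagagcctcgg
Sgsh (chr11:119355511-119355590, minus strand): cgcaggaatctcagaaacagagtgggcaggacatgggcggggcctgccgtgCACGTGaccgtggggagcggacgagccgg
Lamp1 (chr8:13159081-13159160, plus strand): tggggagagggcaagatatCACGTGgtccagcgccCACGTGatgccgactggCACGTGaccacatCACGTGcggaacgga
Ids (chrX:70365086-70365165, minus strand): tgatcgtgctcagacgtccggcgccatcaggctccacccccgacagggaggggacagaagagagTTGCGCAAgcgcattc

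Most genes of soluble lysosomal proteins rose with C/EBPβ, while none of the 6 genes of lysosomal membrane proteins passed the test. Counts were high enough for a test in 40 of the 42 genes: 23 rose, 1 fell and 16 did not pass. Among all 15886 genes tested, 43.2% passed, 22.3% as higher and 20.9% as lower, so the share of lysosomal genes that rose (57.5%) was larger and the share that fell (2.5%) smaller than over all genes. The median log2 fold change was 0.32 for the lysosomal genes and 0.01 for all genes. Most differences were modest: 3 of the 40 lysosomal genes, Ctsf, Gm2a and Ctso, passed with a change of at least 2-fold. Over all genes tested, 16.6% did so. Taken without its sign, the log2 fold change had a median of 0.32 for the lysosomal genes and 0.33 for all genes. Both overexpressing libraries lay above both empty-vector libraries for 28 of the 40 genes (38.4% over all genes) and below them for 5 (36.7% over all genes).

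By class, 23 of 33 soluble enzymes, activators and lipid binders rose and 1 fell, with a median log2 fold change of 0.46. The median of the 6 membrane protein genes was -0.06. The difference between the classes was not tested. All 42 genes together took 0.943 ± 0.0452% of assigned fragments in the empty-vector libraries and 1.14 ± 0.0735% in the overexpressing libraries (mean ± SD, n = 2 each), with the libraries at 0.975, 0.911, 1.197 and 1.093%. Within this total the membrane proteins went from 34.6% to 27.0% of the fragments and the soluble proteins from 65.3% to 72.9%. Of the membrane protein genes, Cd63 went from 12.6% to 9.43% and Lamp1 from 12.5% to 8.67%, neither of them called. Lamp2 went from 5.11% to 5.26%. The summed level of the membrane proteins was 3390 and 3260 CPM in the empty-vector libraries and 3030 CPM in each overexpressing library.

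**Figure D1:**
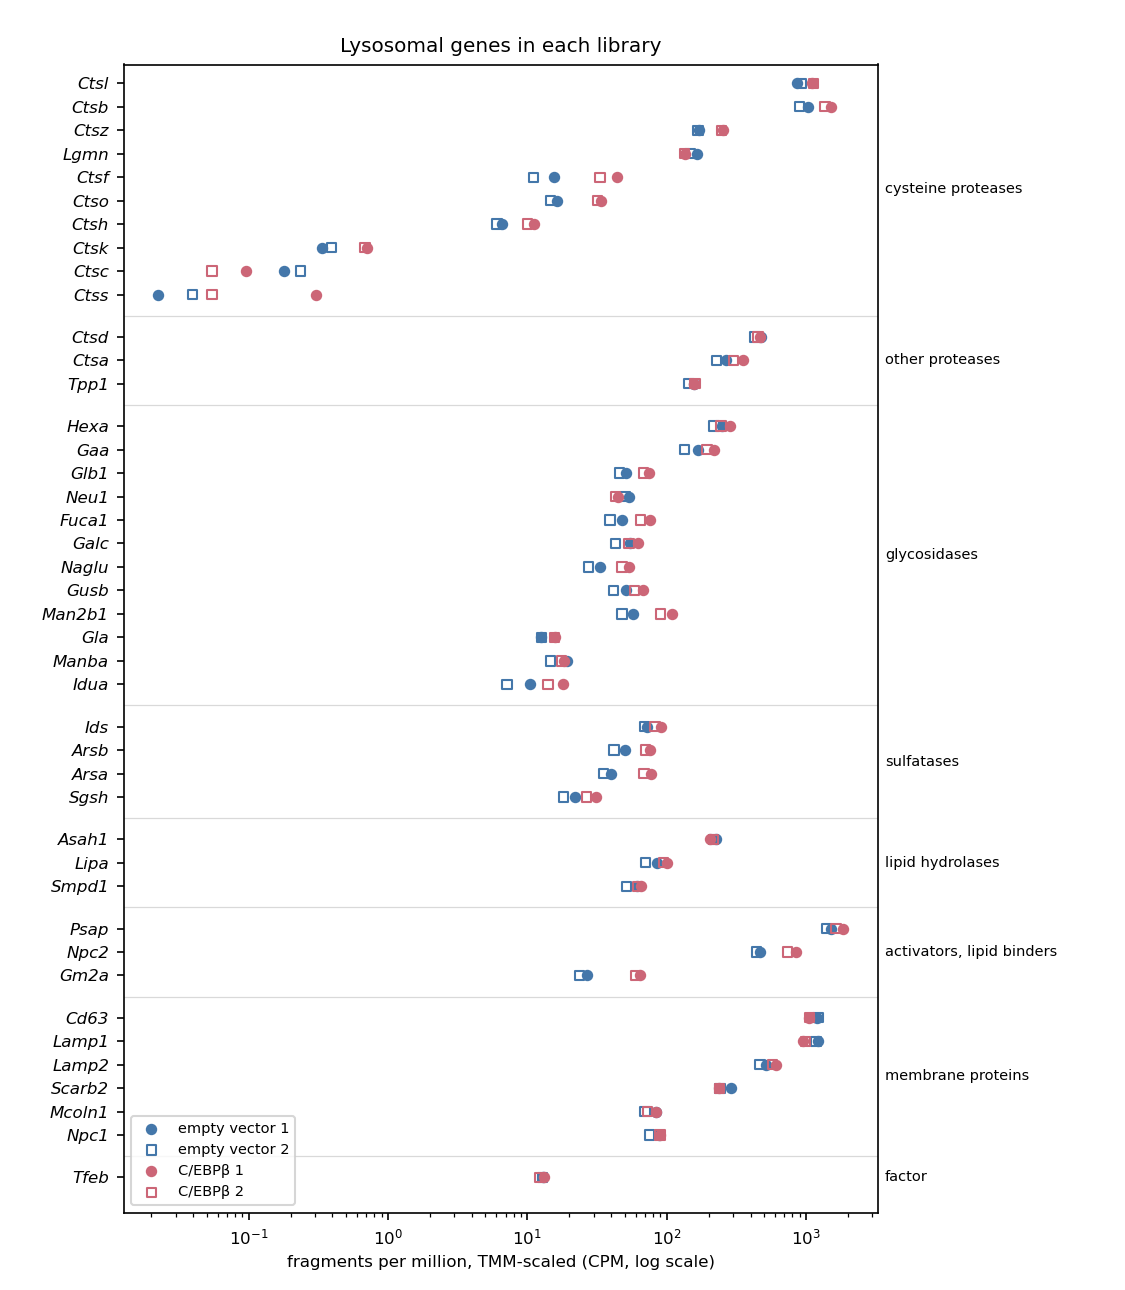
CPM (log axis) of each of the 42 genes in the 4 libraries, by class. Blue marks are the empty-vector libraries and red marks the overexpressing libraries, with filled circles for replicate 1 and open squares for replicate 2. Red lies to the right of blue for Ctsf, Ctso, Gm2a, Npc2 and the 4 sulfatases, and the colours meet for Ctsd, Hexa, Mcoln1 and Tfeb.

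The call for a rise held for part of these genes when a library was left out. Without empty-vector replicate 2, 13 lysosomal genes rose and none fell, while the share of all genes called higher went down to 13.3% and that called lower to 11.3%. The 11 genes that lost their call there were Ctsa, Ctsb, Ctsk, Ctsl, Gaa, Gla, Gusb, Ids, Lipa, Neu1 and Sgsh. The other 13, Ctsf, Ctsh, Ctso, Ctsz, Glb1, Idua, Man2b1, Naglu, Fuca1, Arsa, Arsb, Gm2a and Npc2, passed as higher under each of 12 alternative settings, and all 24 kept their direction in every setting that tested them. Lysosomal genes also differed between libraries of 1 group: 3 of 40 were higher in empty-vector replicate 2 than in replicate 1 (median log2 difference -0.17), and with C/EBPβ 6 of 40 had their higher value in replicate 2 (median -0.11). The summed muscle markers differed the other way within both groups, and their part in the differences of lysosomal genes was not tested.

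Most cysteine proteases rose. These enzymes, most of them relatives of papain, cut proteins in the lysosome, and 7 of the 8 tested from 10 listed rose, with a median log2 fold change of 0.66. Ctsf, cathepsin F (chromosome 19, 4855129 to 4860912, plus strand of GRCm38), had 15.6 and 11.1 CPM in the empty-vector libraries and 44.3 and 33.3 CPM in the overexpressing libraries. The lowest overexpressing value was above the highest control by more than either group's spread, and the difference was the largest of the 40, 2.91-fold (log2 fold change 1.54, SE 0.21, adjusted p = 0.00241). Ctso, cathepsin O (chromosome 3, 81932601 to 81956725), went from 16.4 and 14.7 to 33.6 and 32.0 CPM (log2 fold change 1.08, SE 0.10, adjusted p = 0.000143). Both groups were tight for Ctso, with about the same value in each pair of libraries.

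Ctsh, cathepsin H, an aminopeptidase, stood at 6.57 and 6.07 CPM in the controls and at 11.1 and 10.0 CPM with C/EBPβ (log2 fold change 0.74, SE 0.13). Ctsb, cathepsin B, one of the most abundant lysosomal proteases here, went from 1040 and 896 to 1520 and 1370 CPM, which is 0.58 on the log2 scale (SE 0.13, adjusted p = 0.00773). Its call was lost without empty-vector replicate 2 (adjusted p = 0.0897). Ctsz, cathepsin Z, a carboxypeptidase, went from 172 and 168 to 255 and 247 CPM (log2 fold change 0.56, SE 0.08). For these 3 genes too, every overexpressing library was above every control.

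Ctsl, cathepsin L, ranked 3 among the 42 genes in level per transcript length, at 438 and 469 FPKM (CPM per kilobase of the gene's exons) in the controls and 558 and 573 FPKM with C/EBPβ. Its rise was small (log2 fold change 0.32, SE 0.11, adjusted p = 0.0467), and it passed under 7 of the 12 alternatives. Ctsk, cathepsin K, the collagen-degrading protease known from osteoclasts, was near the detection limit, with 15 and 20 fragments in the controls and 37 and 25 in the overexpressing libraries. Its log2 fold change was 0.92 (SE 0.31, adjusted p = 0.0411), and it failed in DESeq2 (adjusted p = 0.237), without the low-count filter (0.0551) and when any single library was left out (0.0758 to 0.185). Ctsc, the dipeptidyl peptidase that activates granule serine proteases, had 8, 12, 5 and 2 fragments in empty-vector replicates 1 and 2 and overexpressing replicates 1 and 2, too few to be tested. Ctss, cathepsin S, known from antigen-presenting cells, had 1, 2, 16 and 2 fragments in the same order and was not tested either, since 1 library held most of them. Without overexpressing replicate 2, so with that library alone on its side, Ctss passed the filter and was called higher, and it was also called higher with all libraries and no low-count filter. Lgmn, legumain, which cuts after asparagine and processes cathepsins, stood at 164 and 147 CPM in the controls and 135 in both overexpressing libraries, a log2 fold change of -0.20 that missed the threshold (SE 0.09, adjusted p = 0.0949).

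The 3 proteases of other types differed less. Ctsa, the serine carboxypeptidase that also protects β-galactosidase and neuraminidase, rose from 267 and 229 to 354 and 303 CPM (log2 fold change 0.41, SE 0.12, adjusted p = 0.0244). Ctsd, the aspartic protease cathepsin D, had a log2 difference of 0.02 (SE 0.10) and Tpp1, tripeptidyl peptidase 1, one of 0.07 (SE 0.08). The value of Ctsd is uncertain, because 34.4% of its exonic bases are shared with Gm49369, an overlapping gene on the same strand, and fragments in shared stretches were not assigned to either.

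**Figure D2:**
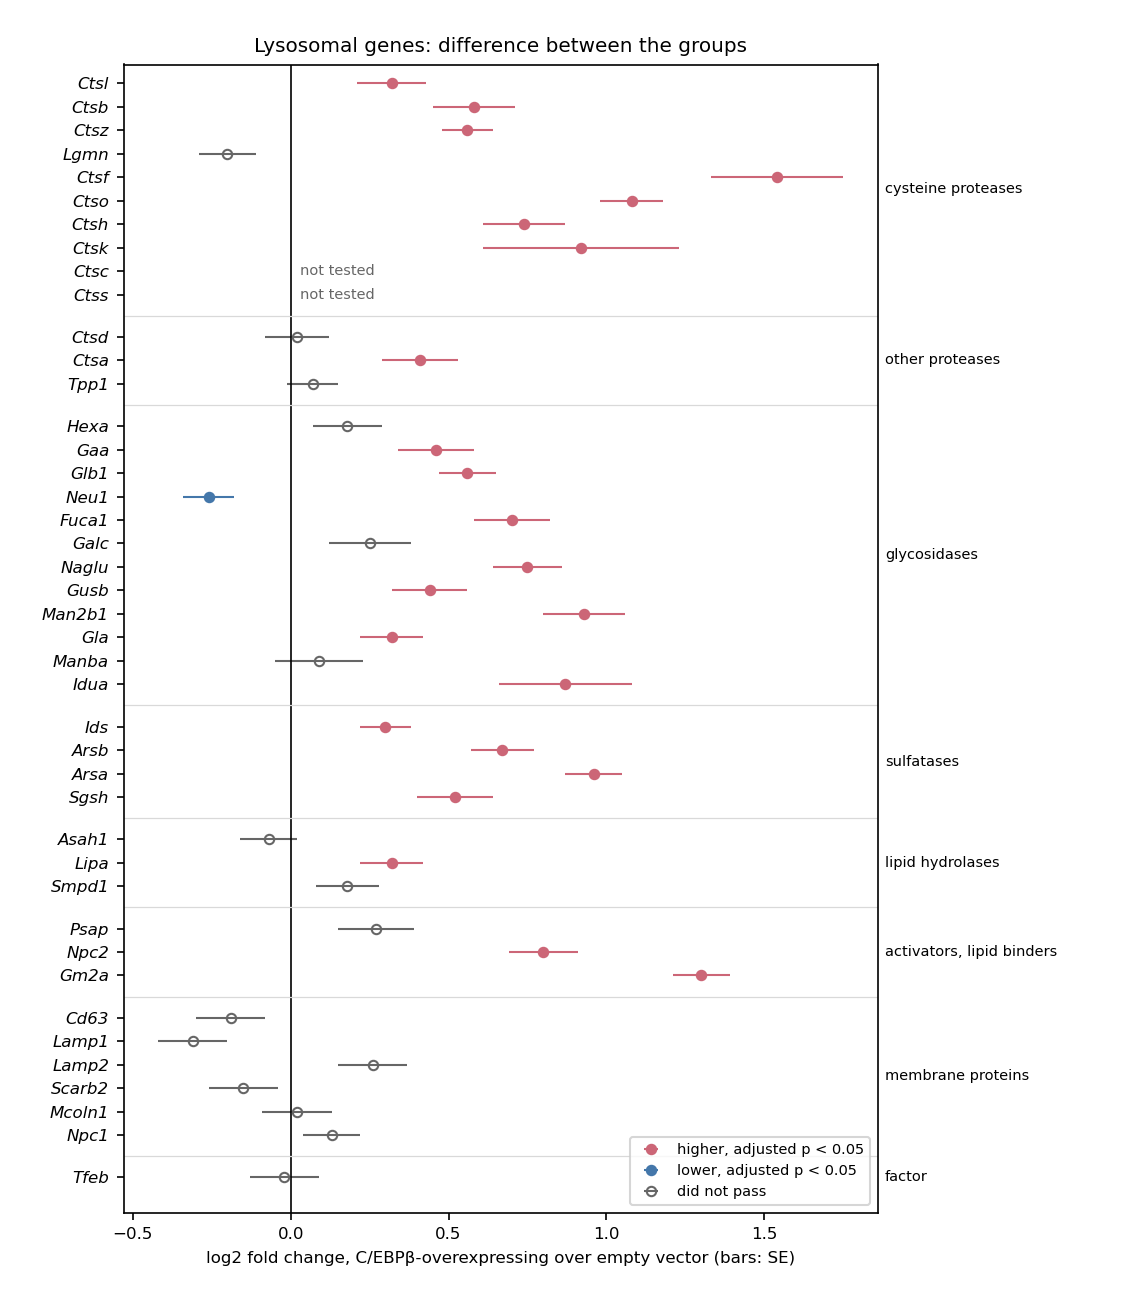
Log2 fold change of each gene between the groups, with bars of 1 SE and positive values for higher levels with C/EBPβ. Filled red points rose, the filled blue point fell, open points did not pass, and 2 genes were not tested. All 4 sulfatases and 7 of 8 cysteine proteases lie to the right as filled points, and all 6 membrane proteins are open.

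Of 12 glycosidases, which cut sugars from glycoproteins, glycolipids and glycosaminoglycans, 8 rose, 1 fell and 3 did not pass, with a median log2 fold change of 0.45. Man2b1, lysosomal α-mannosidase, went from 57.8 and 47.7 to 110 and 90.8 CPM, which is 0.93 on the log2 scale (SE 0.13, adjusted p = 0.00152). Fuca1, the α-fucosidase, went from 47.9 and 39.3 to 76.3 and 65.1 CPM (log2 fold change 0.70, SE 0.12). Glb1, the acid β-galactosidase whose activity is used to stain senescent cells, went from 50.7 and 46.1 to 75.3 and 67.9 CPM (log2 fold change 0.56, SE 0.09). For these 3 genes the groups did not overlap, and replicate 1 was the higher library in both groups.

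Naglu, α-N-acetylglucosaminidase, went from 33.0 and 27.6 to 54.1 and 47.9 CPM and had the smallest p of the glycosidases (log2 fold change 0.75, SE 0.11, adjusted p = 0.00122). Idua, α-L-iduronidase, had 10.4 and 7.16 CPM in the controls and 18.0 and 14.1 CPM with C/EBPβ, so that the spread within each group was wide beside the difference (log2 fold change 0.87, SE 0.21). Gaa, the acid α-glucosidase that digests glycogen, rose by 0.46 on the log2 scale (SE 0.12, adjusted p = 0.0205), from 168 and 134 to 220 and 195 CPM. Without empty-vector replicate 2 the value for Gaa was 0.30 and its call was lost (adjusted p = 0.128). Gusb, β-glucuronidase, rose by 0.44 and Gla, α-galactosidase A, by 0.32 on the log2 scale. Hexa, a glycosidase that acts on ganglioside GM2 (0.18), Galc, galactosylceramidase (0.25), and Manba, β-mannosidase (0.09), did not pass, and for all 3 the groups overlapped. Galc passed as higher without empty-vector replicate 1 (log2 fold change 0.43, adjusted p = 0.0286), without overexpressing replicate 2 (adjusted p = 0.00936), without the low-count filter (0.0280) and with the replicate number as a block (0.0132), and without empty-vector replicate 2 its log2 fold change was 0.09. Neu1, the sialidase that forms a complex with Glb1 and Ctsa, was the single gene called lower, at 54.0 and 50.2 CPM against 44.4 and 42.8 CPM (log2 fold change -0.26, SE 0.08, adjusted p = 0.0292). Its call was lost without either control (adjusted p = 0.164 and 0.0580), without overexpressing replicate 2 (0.0770), in DESeq2 (0.0541) and with library sizes alone (0.0809).

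All 4 sulfatases rose, with a median log2 fold change of 0.59. Arsa, arylsulfatase A, which removes sulfate from sulfatide (chromosome 15, 89472476 to 89477425, minus strand), had 39.6 and 35.1 CPM in the controls and 76.7 and 68.7 CPM with C/EBPβ. Its log2 fold change was 0.96 (SE 0.09, adjusted p = 0.000167), and the gap between the groups was several times the spread within them. Arsb, arylsulfatase B, went from 50.2 and 41.8 to 75.6 and 70.2 CPM (log2 fold change 0.67, SE 0.10). Sgsh, heparan N-sulfatase, went from 22.0 and 18.2 to 31.1 and 26.7 CPM (log2 fold change 0.52, SE 0.12). Ids, iduronate 2-sulfatase, rose least, by 0.30 on the log2 scale (SE 0.08, adjusted p = 0.0204).

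Among genes that act on heparan and dermatan sulfate, looked at together after the values were seen, Idua, Ids, Sgsh, Naglu, Gusb and Arsb rose. Of others with a step there, Hexa and, from outside the 42 genes, the acetyltransferase gene Hgsnat (log2 fold change 0.24, adjusted p = 0.0529) did not pass. Without empty-vector replicate 2, Ids, Sgsh and Gusb lost their calls (adjusted p = 0.118, 0.0721 and 0.106).

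Genes for lipid breakdown were divided. Gm2a, the GM2 activator protein, which lifts ganglioside GM2 from the membrane for its breakdown, had 26.9 and 23.7 CPM in the controls and 64.0 and 60.2 CPM with C/EBPβ. The groups were far apart beside their spread, a 2.46-fold difference (log2 fold change 1.30, SE 0.09), and its adjusted p of 3.59e-05 was the smallest of the 40. Gm2a spans 55098115 to 55113029 of chromosome 11, plus strand. Npc2, the soluble protein that hands cholesterol on inside the lysosome, went from 470 and 439 to 845 and 740 CPM (log2 fold change 0.80, SE 0.11, adjusted p = 0.00104). Its share of all lysosomal fragments went from 4.73% to 7.05%.

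Lipa, lysosomal acid lipase, rose from 85.3 and 70.5 to 100 and 94.7 CPM (log2 fold change 0.32, SE 0.10, adjusted p = 0.0341), and without empty-vector replicate 2 its log2 fold change was 0.19 (adjusted p = 0.217). Psap, prosaposin, the precursor of the saposins, small sphingolipid activators, was among the most abundant genes, at 546 and 509 FPKM in the controls and 673 and 599 FPKM with C/EBPβ. The difference missed the threshold in edgeR (log2 fold change 0.27, SE 0.12, adjusted p = 0.118). In DESeq2 Psap passed (adjusted p = 0.0457). Smpd1, acid sphingomyelinase (0.18, SE 0.10), and Asah1, acid ceramidase (-0.07, SE 0.09), did not pass.

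Genes of lysosomal membrane proteins had both signs and none was called. Cd63, a tetraspanin of late endosomes and lysosomes, had the highest level per length of the 42 genes, at 1160 and 1180 FPKM in the controls and 1020 and 1030 FPKM with C/EBPβ. Its log2 fold change was -0.19 (SE 0.11, adjusted p = 0.202), although both overexpressing libraries were below both controls. The value is uncertain in part, since 11% of the 50-base windows of its transcripts occur in transcripts of other genes. Lamp1, a heavily glycosylated protein of the lysosomal wall, had 457 and 443 FPKM in the controls and 357 and 370 FPKM with C/EBPβ. Its log2 fold change of -0.31 (SE 0.11) just missed the threshold in edgeR (adjusted p = 0.0526) and passed as lower in DESeq2 (0.00289), in limma-voom (0.0363), without the low-count filter (0.0261) and without overexpressing replicate 2 (0.0342).

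Lamp2, the related protein whose loss causes Danon disease of heart and muscle, leaned the other way, from 515 and 468 to 608 and 574 CPM (log2 fold change 0.26, SE 0.11, adjusted p = 0.0756). It passed as higher in DESeq2 (0.0402) and with library sizes alone (0.0362). Scarb2, which carries β-glucocerebrosidase to lysosomes, stood at -0.15 (SE 0.11), Npc1, the membrane partner of Npc2 in cholesterol export, at 0.13 (SE 0.09), and Mcoln1, the lysosomal calcium channel mucolipin 1, at 0.02 (SE 0.11), all as log2 fold changes. Tfeb, the regulator of this gene family, had 13 and 12.8 CPM in the controls and 13.2 and 12.2 CPM with C/EBPβ, overlapping groups with a log2 difference of -0.02 (SE 0.11, adjusted p = 0.919).

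The genes with the highest levels had a smaller median difference than the rest. Of the 10 genes with the highest FPKM in the controls, which held 74.8% of the lysosomal fragments, 4 rose (Ctsl, Ctsb, Npc2 and Ctsz), none fell, and the median log2 fold change was 0.22. Of the 30 others tested, 19 rose and 1 fell, with a median of 0.42. The difference between these sets was not tested. The control levels that formed the sets also enter the fold changes. The set with the highest levels includes the membrane protein genes Cd63 and Lamp1. The 3 genes that changed at least 2-fold had low levels in the controls, from 3.04 FPKM for Ctso to 6.77 FPKM for Ctsf.

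**Figure D3:**
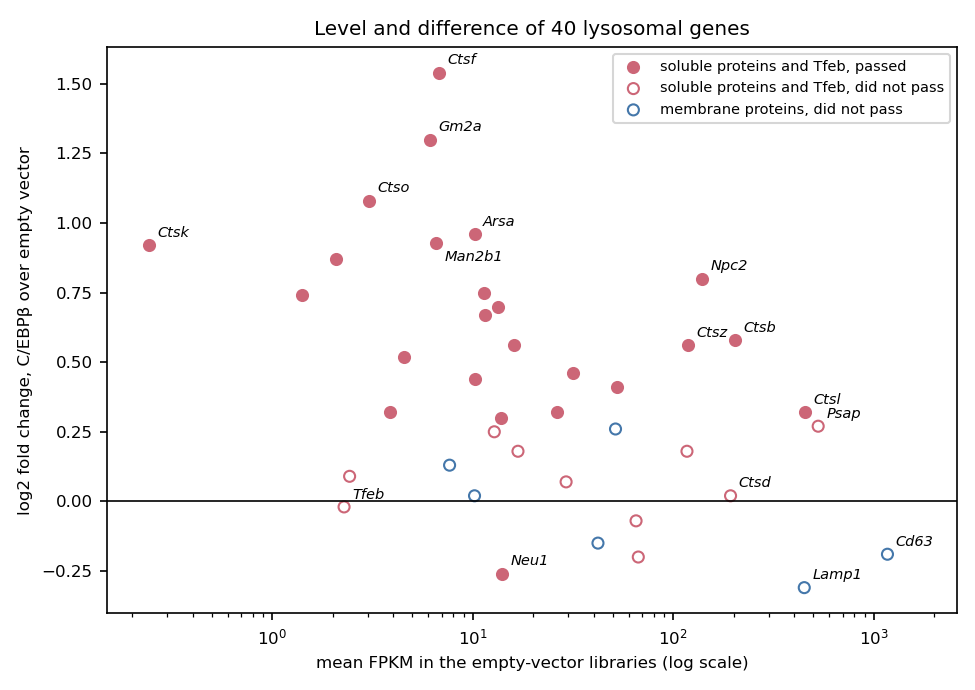
Mean FPKM in the empty-vector libraries (log axis) against the log2 fold change for the 40 genes tested, filled where the gene passed. Red points are soluble proteins and Tfeb, blue points the 6 membrane proteins. Cd63, Psap and Lamp1, at 1170, 528 and 450 FPKM, are open points between -0.31 and 0.27, and Ctsf, Gm2a and Ctso stand at the top at low levels.

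Genes with and without the promoter motifs both included some that rose and some that did not pass. RefSeq promoter windows of 300 bases, from 250 before to 50 after the start, were matched for 38 of the 42 genes. CACGTG, which reads the same on both strands, was found in 13 of the 38 (34.2%), against 7.15% of all 32851 windows and 11.5% of the genes tested that have a window. Of the 13 genes with the motif 9 rose and 4 did not pass, and of the 23 tested genes without it 12 rose and 1 fell. Lamp1, with 4 copies in the stretch shown above, and Mcoln1, with 2, were not called, while Arsa, Glb1 and Sgsh, with 1 copy each in theirs, rose. The others of the 13 were Ctsf, with a copy 79 bases before the start, Naglu (73), Lgmn (49) and Ctsa (12). Ctsd had copies 98 and 245 bases before the start, Gla had copies at 194 and 227, Gaa at 140 and Ctsl at 236.

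The longer form TCACGTGA, which contains CACGTG, was found in Ctsa, Ctsd, Gla and Mcoln1 (10.5% of the 38 genes, 2.12% of the genes tested that have a window, 0.974% of all windows). The C/EBP palindrome TTGCGCAA was found in Ids alone, 16 bases before the start (0.327% of the genes tested that have a window, 0.183% of all windows). Its looser form TTGCNNAA, searched on both strands and containing the palindrome, was found in 6 genes, Ctsk, Ctsl, Gaa, Ids, Npc2 and Tfeb (15.8%, against 10.1% of the genes tested that have a window and 10.8% of all windows). Of these, 5 rose and Tfeb did not pass. Of the 30 tested genes that have a window without this form, 16 rose and 1 fell. A match in such a window is a description of the letters and not a measured binding site.

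Lysosomal hydrolases outside the 42 genes mostly rose too. Of 28 tested from 29 listed, 17 rose (60.7%) and 2 fell (7.14%), with a median log2 fold change of 0.37. Without empty-vector replicate 2, 10 rose. Ctsg, cathepsin G, a serine protease known from neutrophil granules, had 1 and 4 fragments in the controls and 181 and 86 with C/EBPβ (log2 fold change 5.73, SE 0.46). Acp5, the tartrate-resistant acid phosphatase of osteoclasts, went from 0.112 and 0.158 to 1.38 and 1.5 CPM (log2 fold change 3.37, SE 0.34). The 2 that fell were Ctsw, at 2.31 and 2.79 against 0.459 and 1.26 CPM (log2 fold change -1.64), and Galns, which removes sulfate from keratan sulfate (-0.56). Ctsw lost its call without either control (adjusted p = 0.0644 and 0.125), and its log2 fold change was -1.02 without overexpressing replicate 1 and -2.49 without replicate 2. Chosen after their values were seen, Pla2g15, a lysosomal phospholipase (0.83), and Man2b2, a further mannosidase (1.23), rose as well.

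In the other lists of lysosomal genes, the shares called were set beside the 22.3% higher and 20.9% lower over all genes tested. Of 23 further membrane protein genes 4 rose (17.4%) and 5 fell (21.7%), with a median log2 fold change of 0.05, close to the shares over all genes, the largest of these being Sidt2 (0.84) and Slc29a3 (0.73) upwards and Abca2 (-1.21) and Cd164 (-0.73) downwards. Of 21 genes of the vacuolar ATPase, the pump that acidifies the lysosome, 1 rose (4.76%) and 7 fell (33.3%), with a median of -0.16. Atp6v1c2 fell most, from 8.97 and 10.1 to 0.478 and 1.20 CPM (log2 fold change -3.58, SE 0.34), and Atp6v0e2 had a log2 fold change of -0.66. Atp6v0d2, known from osteoclasts, was the one that rose, from 0.381 and 0.119 to 0.861 and 1.07 CPM (1.96, SE 0.46), and without empty-vector replicate 1 its log2 fold change was 2.98. Without replicate 2 it was 1.32 and the call was lost (adjusted p = 0.0623), as that of Atp6v0e2 was without replicate 1 (0.0653).

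For the sorting of enzymes to lysosomes, 3 of 16 genes rose (18.8%) and 2 fell (12.5%), with a median of 0, so the share that rose was near that over all genes. The risers were Nagpa (log2 fold change 0.39), Gnptab (0.38) and Gnptg (0.36), which together make the mannose 6-phosphate tag. Gga2, an adaptor of this route, and Igf2r, one of the receptors for the tag, fell (-0.50 and -0.34). Nagpa and Gnptab lost their calls without empty-vector replicate 2 (adjusted p = 0.111 and 0.0836), and Igf2r lost its call without replicate 1 (log2 fold change -0.18, adjusted p = 0.250) and with library sizes alone (adjusted p = 0.0676). Gnptg lost its call without any of 3 libraries, empty-vector replicate 1 (0.0794), empty-vector replicate 2 (0.102) and overexpressing replicate 1 (0.160). Without empty-vector replicate 2 no sorting gene was called higher. Of 19 genes of the MiT/TFE factors and of mTORC1 signalling at the lysosome, 3 rose and 3 fell (15.8% each), with a median of -0.01, again no more than over all genes. Rptor, the mTORC1 subunit raptor, fell most (-0.87, SE 0.10), with Rragd (-0.57) and Flcn (-0.46). Fnip1 (0.39), Tfe3, the relative of Tfeb (0.27), and Lamtor2 (0.27) rose, and the calls for Tfe3 and Lamtor2 were lost in DESeq2 (adjusted p = 0.0633 and 0.0818). Leaving out a library also lost Tfe3 (0.159 without empty-vector replicate 2, 0.0965 without overexpressing replicate 1) and Lamtor2 (0.232 without empty-vector replicate 1, 0.111 without overexpressing replicate 1).

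Most inhibitors of cathepsins that could be tested rose. Of 9 tested from 13 matched genes, 6 rose (66.7%) and none fell, against 22.3% higher and 20.9% lower over all genes tested. Among the 9 is Serpinh1, a serpin known as a collagen chaperone and not as a protease inhibitor, which did not pass (log2 fold change 0.31). The median log2 fold change of the list was 1.60. Cst3, cystatin C, a secreted inhibitor of cysteine cathepsins chosen after its values were seen, went from 273 and 251 to 845 and 748 CPM (log2 fold change 1.60, SE 0.11, adjusted p = 3.96e-05). Kng2, a kininogen with cystatin domains, went from 2.62 and 0.988 to 89.8 and 70.3 CPM. Kng1 had no fragment in the controls and 600 and 305 with C/EBPβ, a level at least 323-fold higher when the control group as a whole is set to 3 fragments. With Kng1 at that bound the median of the list was still that of Cst3. The kininogens share 17.2% (Kng1) and 19.4% (Kng2) of their 50-base windows with each other, so their counts are uncertain to that extent. Ctla2a and Ctla2b, which resemble cathepsin propeptides and were named after their values were seen, rose by 3.30 and 2.25 on the log2 scale. Whether Ctla2a and Ctla2b share sequence windows with each other was not checked.

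**Figure D4:**
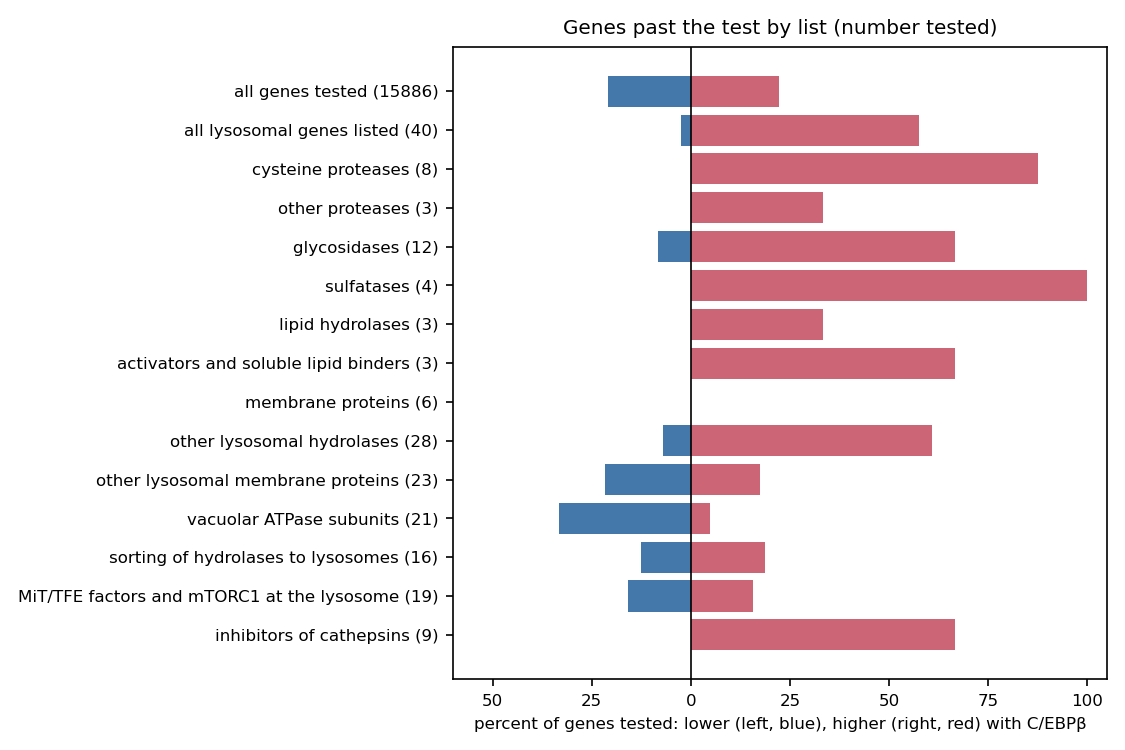
Percent of the genes tested in each list that were called higher (red, to the right) or lower (blue, to the left) with C/EBPβ, with the number tested in brackets. Red prevails for the cysteine proteases, glycosidases, sulfatases, other hydrolases and cathepsin inhibitors, and blue for the vacuolar ATPase.

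Markers of other cell types, among them macrophages and osteoclasts, which are rich in lysosomes, were set beside these values. Over all genes tested, 22.3% were called higher and 20.9% lower, and the counts below are to be read beside these shares. Of 16 macrophage markers, among them Cd68, also in the membrane protein list, 7 were tested, of which 3 rose and 1 fell, and their summed level went from 8.50 to 9.35 CPM in the controls up to 41.9 to 45.0 CPM. Most of this was Lyz2, at 28.4 and 26.1 CPM with C/EBPβ, while Adgre1, Fcgr1, Tyrobp, C1qa, C1qb and C1qc had no fragment in any library. Of 9 osteoclast markers, which include Acp5 and Atp6v0d2 named above, 4 were tested and 3 rose, with sums of 35.5 to 39.8 CPM in the controls and 51.3 to 53.7 CPM with C/EBPβ, and Calcr and Dcstamp had no fragment. Of 11 fibroblast and fibro-adipogenic markers 9 were tested, 4 rose and 2 fell (sums 815 to 881 against 1060 to 1200 CPM), with no fragment of Tcf21. Of 9 fat cell markers 4 were tested and all 4 rose, with sums of 25.4 to 25.5 CPM in the controls and 1060 to 1510 CPM with C/EBPβ, nearly all of it Lpl, and Lep had no fragment. Of 7 endothelial markers 2 were tested and Tek fell, with sums of 1.98 to 2.00 against 1.89 to 2.00 CPM, and Tie1 and Emcn had no fragment. The part of these cell types in the lysosomal results was not tested.

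The authors' deposited table lists all 42 genes. In it 20 were called higher and 4 lower at an adjusted p under 0.05, where 16.1% of its rows were higher and 20.9% lower. The authors' deposited table and the fit used here called 21 genes the same way. In the authors' deposited table Lamp1 (log2 fold change -0.37), Lgmn (-0.27) and Cd63 (-0.25) were called lower beside Neu1 (-0.32), and Ctsk, Gla and Ids did not pass.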

How the data were processed

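For each of the 4 libraries the deposited file holds unnormalised fragment counts by gene. The submitters' processing notes name HISAT2 2.0.4, featureCounts 1.4.6 and the build GRCm38. The file headers name featureCounts 1.5.1, reverse-strand counting of pairs and GENCODE M12, with no option to count fragments of several places or genes. Per the file headers, the authors' further table holds a mean normalised signal, a log2 fold change, a test score, p-values and adjusted p-values. The libraries that entered it are not given in the sources used here.

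Symbols were matched by gene identifier. Genes passing edgeR's filterByExpr at its defaults (15886 genes) were scaled by TMM and compared with edgeR 4.0.16 in R 4.3.3 (glmQLFit, robust, and glmQLFTest, 2-sided), with Benjamini-Hochberg adjustment over all genes and a threshold of 0.05. Each SE is the size of the log2 fold change over the square root of its F statistic. The script was tested on simulated data of 15586 genes, of which 63 changed 1.5-fold, 65 changed 2-fold and 65 changed 4-fold. It recovered 54% of the 1.5-fold, 75.4% of the 2-fold and 100% of the 4-fold changes. Of the calls there, 5.13% were false. Modest changes can thus be missed, and a gene that did not pass is not shown to be unchanged. The share of genes changed in the simulation was far below the 43.2% called here. The simulated shares of changes recovered and of false calls therefore need not hold for these data. FPKM was computed from CPM and the exonic length in the count files. With 2 libraries against 2, the smallest p of an exact permutation test is 0.333, so single values were not tested that way. Alternatives were other scalings, DESeq2 1.42.0, limma-voom (limma 3.58.1), other filters, leaving out each library and a block for the replicate number. Chi-square per degree of freedom between replicates was 18.2 and 25.9, so none was a copy of another.

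The genes and lists were chosen with earlier results of these data known. Values in every library are given for genes called with a log2 fold change of at least 0.5 in size, the 5 highest in FPKM, the smallest p in each class and genes not tested. From the other lists the 2 largest rises and falls are named, and further names were chosen after their values were seen. Atp6v0a3 and Spink3 matched no symbol. Protein sequences were not used here.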

Additional observations from a re-analysis of the deposited data

How the results depend on the processing

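The counts over the 42 genes, over all genes and over the 6 further lists of lysosomal genes, and the genes named for a value in them, were recomputed under 12 alternatives, the further lists and the genes named after their values were seen as an addition made after seeing the data. Counts by class and of marker lists were not recomputed, nor was the value of a few genes named in passing. The number of lysosomal genes that rose was 20 to 24 in all of them except 1: without empty-vector replicate 2 it was 13, beside 2169 genes higher and 1836 lower over all genes. Leaving out each library in turn gave 13 to 22 lysosomal genes higher, 0 to 1 lower, a median log2 fold change of 0.29 to 0.45, 2169 to 3712 genes higher and 1836 to 3702 lower. The median of 0.45 came without empty-vector replicate 1. The count of lysosomal genes that fell was 0 with library sizes alone, since Neu1 was lost, and 2 with limma-voom and without the low-count filter, where Lamp1 was added. No direction of a called gene reversed in these alternatives. Of the values of named genes under an alternative, 780 stayed on the same side of the threshold, whether passing or not, 47 lost a call and 11 gained one. Where a group kept 1 library, that library was assumed to vary like those of the other group. Leaving out each library gave 10 to 19 further hydrolases higher and 1 to 2 lower, 3 to 5 further membrane proteins lower, 0 to 2 vacuolar ATPase genes higher, 0 to 3 sorting genes higher and 1 to 3 lower, 1 to 4 MiT/TFE and mTORC1 genes higher and 0 to 1 cathepsin inhibitors lower. Vacuolar ATPase genes called higher numbered 2 with library sizes alone, with limma-voom, without the filter and with the replicate block, and 0 with the filter of 1 CPM. Sorting genes called lower numbered 1 with library sizes alone, and MiT/TFE and mTORC1 genes called higher 1 in DESeq2. The cause of these changes was not tested. With the replicate number as a block, 24 lysosomal genes rose, Galc among them (adjusted p = 0.0132), and 1 fell, and 3983 and 3693 genes over all. The labels do not tie equal replicate numbers to a shared culture or day, and the deviations of same-numbered libraries had a correlation of 0.147. The share of fragments in lysosomal genes was 0.961 and 1.16% without mitochondrially encoded genes. That share does not use TMM, so no alternative without it was run, and the planned comparison of protein sequences was not run. Depth limits Ctsk, Ctsc and Ctss, with 37 fragments or fewer in every library.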

Other observations

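The summed level of the 42 lysosomal genes and that of the 10 muscle differentiation markers stood in opposite order over the 4 libraries. From the library with the most muscle marker RNA to that with the least, the muscle sums were 29400 CPM (empty-vector replicate 2), 26000 CPM (empty-vector replicate 1), 12000 CPM (overexpressing replicate 2) and 7360 CPM (overexpressing replicate 1). The lysosomal sums in the same order were 9290, 9940, 10900 and 11600 CPM. Several classes followed the order of the total. In that order the cysteine proteases summed to 2170, 2270, 2960 and 3100 CPM, and the other proteases to 805, 902, 916 and 979 CPM. The glycosidases summed to 682, 810, 915 and 1050 CPM, and the sulfatases to 164, 184, 248 and 274 CPM. Activators and soluble lipid binders summed to 1860, 2000, 2440 and 2760 CPM. The membrane proteins (3260, 3390, 3030 and 3030 CPM), the lipid hydrolases (338, 372, 373 and 370 CPM) and Tfeb (12.8, 13, 12.2 and 13.2 CPM) did not follow it. With 4 libraries in 2 groups no correlation was computed, and the relation was not tested.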
